A study of Mus musculus with 8 samples.

Results

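The nuclear genes for respiratory complexes II, III, IV and V were followed in cultured mouse myotubes with and without Cre directed at RhoA. They were picked by symbol, as Sdha, Sdhb, Sdhc, Sdhd, Cyc1 and every symbol that starts with Uqcr, Atp5, Cox4, Cox5, Cox6, Cox7 or Cox8. This gave 48 of the 19505 genes measured, 4 of complex II, 9 of complex III, 18 of complex IV and 17 of complex V, each with a single row in the table. The cells were taken from the hindlimbs of mice with RhoA flox/flox alleles and the Pax7-nGFP transgene, a nuclear green marker by which satellite cells were sorted in a flow cytometer. The sorted myoblasts were differentiated for 3 days and exposed for 48 h to adenovirus, either Ad-mCherry (4 arrays), which makes a red fluorescent protein, or Ad-Cre-mCherry (4 arrays), which makes Cre recombinase as well. Both groups thus share the floxed alleles, the Pax7-nGFP transgene and an adenovirus, and the age of the mice that gave these cultures is not stated. The Ad-mCherry virus holds no Cre, so effects of Cre itself and of RhoA loss cannot be told apart in this design. The labels number the arrays of each group 1 to 4, while the methods speak of 3 independent cultures, so n = 4 arrays per group exceeds the cultures named, and p-values measure the spread between these arrays, some of which may be technical.

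Oxidative phosphorylation turns the electrons of nutrients into ATP at the inner mitochondrial membrane. Complex II, succinate dehydrogenase, is at once an enzyme of the citric acid cycle and an entry point for electrons, which it hands to ubiquinone. Complex III passes them to cytochrome c, complex IV passes them to oxygen, and both of these pump protons, whose return flow drives the ATP synthase, complex V. Complex II is encoded in the nucleus alone, whereas complexes III, IV and V join nuclear subunits to a few that mitochondrial DNA encodes. Skeletal muscle is rich in all of them, and some complex IV subunits exist in a general form and in a form made mostly in heart and skeletal muscle.

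Rhoa mRNA served as the check of the labels. On the deposited log2 scale it read 11.16, 11.39, 11.08 and 11.39 in Ad-mCherry replicates 1 to 4 and 9.99, 10.87, 10.87 and 10.23 in Ad-Cre-mCherry replicates 1 to 4, so the groups did not overlap. The differences of arrays with the same number were -1.17, -0.52, -0.21 and -1.16. Myotube markers were abundant in every array, with a mean over 12 genes of 16.46 to 16.92 in the Ad-mCherry arrays and 15.90 to 16.76 in the Ad-Cre-mCherry arrays. Of these 12 markers 11 were lower in the Ad-Cre-mCherry arrays, and Myog, a transcription factor of differentiation (log2 fold change -1.48), and Myh3, the embryonic myosin heavy chain (-1.23), passed the thresholds of the study downward (2 of 12 markers, against 3.50% of all genes), which ask for a fold change of at least 1.2 with an unadjusted p under 0.05. With the replicate number as a block in limma, 5 of the 12 passed downward, against 8.20% of all genes. In that fit 2 had an adjusted p under 0.05, against 0.323% of all genes. The 1 higher marker (log2 fold change 0.62) passed upward with the block, against 6.54% of all genes. The Ad-Cre-mCherry array was the lower in all 4 replicate numbers for 8 of the 12 markers, against 11.1% of all genes. It was the higher in all 4 for 1 marker, against 9.88% of all genes. Markers of fibroblasts (6 genes), endothelial cells (4), macrophages (3) and adipocytes (4) had means of 4.47 to 5.17, 3.58 to 4.21, 3.82 to 4.43 and 3.08 to 3.50 over the 8 arrays, and 0 of them passed in either direction. The undifferentiated myoblast markers Myf5 and Pax7 differed by -1.07 and 0.08, and the cycling cell markers Top2a and Mki67 by -0.48 and -0.17. None of these 4 passed without the block, and Myf5 passed downward with it. The part of the lower myotube markers in the results for the respiratory genes was not tested, and in bulk RNA a change in the number of cells of a type cannot be told apart from a change in RNA per cell.

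Transcripts of the 4 complexes were mostly higher in the Ad-Cre-mCherry myotubes. Of the 48 genes 46 had a higher mean, against 49.9% of all genes, and the remaining pair, Cox4i2 and Cox7b2, are complex IV forms known mainly from lung and testis. The median log2 fold change was 0.26 over the 48 genes and 0.00 over all genes, so the typical difference was modest. In limma 6 of the 48 genes passed these thresholds upward, against 2.92% of all genes. These were Sdhd and Sdhb of complex II, Uqcrc1 and Cyc1 of complex III, and Atp5g1 and Atp5o of complex V. None of the 48 passed downward (0 genes), where 3.50% of all genes did. After Benjamini-Hochberg adjustment over all genes in limma, 0 of the 48 genes had an adjusted p under 0.05, as was the case for 0% of all genes, and the 6 genes above are also those with an unadjusted p under 0.05.

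**Figure D1:**
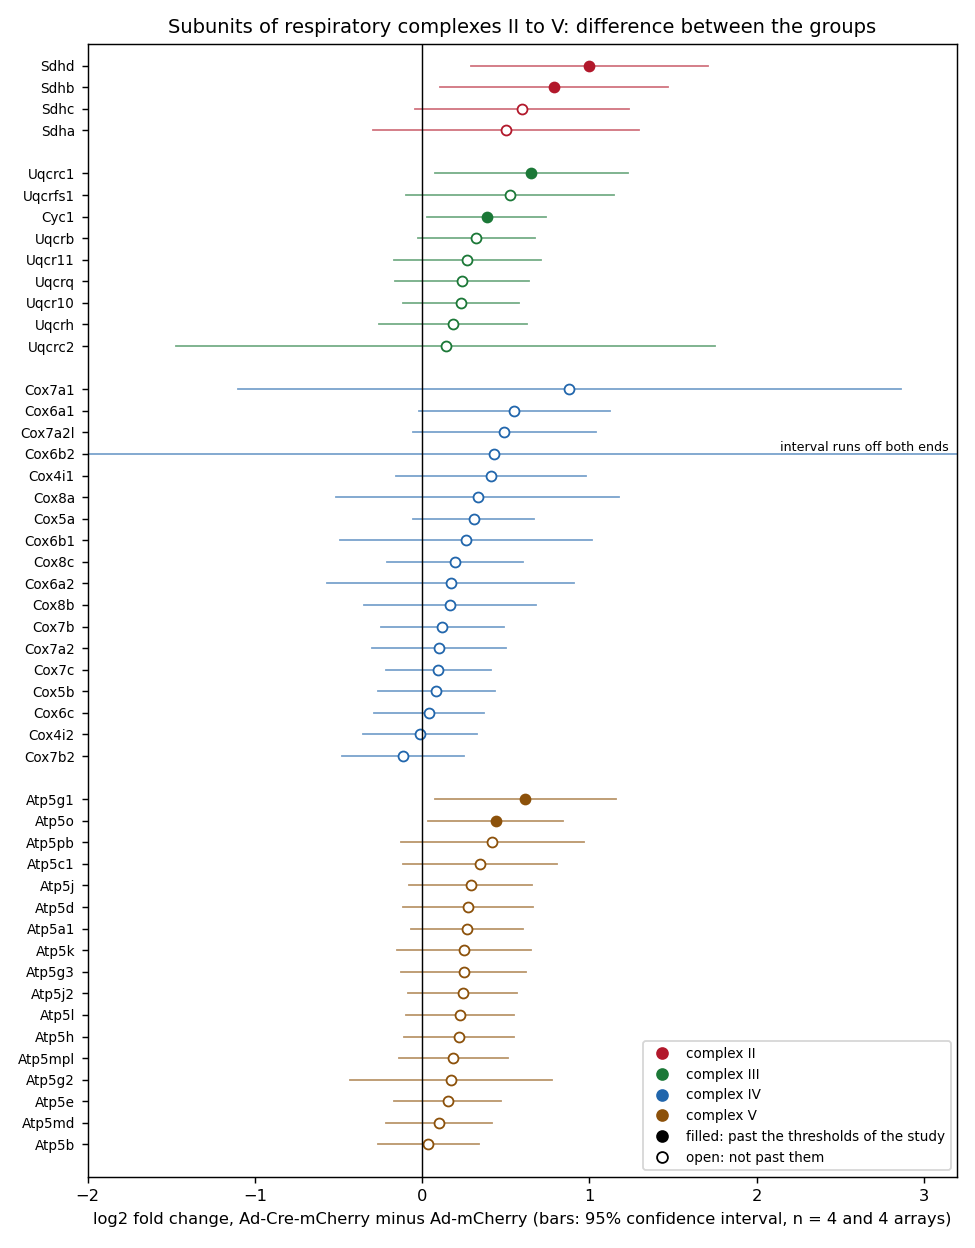
Log2 fold change (Ad-Cre-mCherry minus Ad-mCherry, horizontal axis) of the 48 genes, grouped by complex, with its 95% confidence interval from limma (n = 4 arrays per group). Of the 48 points 46 lie to the right of 0, the 6 filled points passed the thresholds of the study, and the interval of Cox6b2 (-3.71 to 4.56) runs past the axis.

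The result moved with the treatment of the replicate numbers. Arrays of the same number resembled each other across genes, and a fit with the number as a replicate block raised the count of genes past the thresholds from 6 to 11 upward, against 6.54% of all genes, and left it at 0 downward, against 8.20% of all genes. The 11 genes were Sdhb, Sdhc, Sdhd, Uqcrc1, Uqcrfs1, Cox6a1, Cox7a1, Cox7a2l, Atp5g1, Atp5pb and Atp5o, so Cyc1 was lost (unadjusted p = 0.0567 in limma). With this block 0.323% of all genes and 0 of the 48 had an adjusted p under 0.05, the smallest being 0.0757 in limma for Sdhd. Without the block, the count of 6 fell to 0 when both arrays of replicate 2 were left out, to 1 without replicate 1 and to 2 without replicate 3, and was 9 without replicate 4. The upward count over all genes, 569 with every array, also moved. It was 275 without replicate 2, 378 without replicate 1, 495 without replicate 3 and 637 without replicate 4. Leaving out single arrays gave 2 of the 48 (Ad-mCherry replicate 2 or Ad-Cre-mCherry replicate 1), 3 (Ad-mCherry replicate 1, or Ad-Cre-mCherry replicate 2 or 3), 6 (Ad-mCherry replicate 3 or Ad-Cre-mCherry replicate 4) and 10 (Ad-mCherry replicate 4). The matching upward counts over all genes, in the same order, were 389 and 465, then 447, 486 and 702, then 483 and 669, and 643.

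The direction could also be read gene by gene without a fit. In 6 of the 48 genes (Sdhc, Cyc1, Uqcrb, Atp5g1, Atp5o and Atp5j2) every Ad-Cre-mCherry value lay above every Ad-mCherry value, as in 1.82% of all genes. The reverse order was seen in 0 of the 48 and in 1.93% of all genes. In 29 of the 48 the Ad-Cre-mCherry array was the higher in all 4 replicate numbers, which held for 9.88% of all genes. It was the lower in all 4 numbers for 0 of the 48 and for 11.1% of all genes.

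Promoter sequences from RefSeq (build GRCm38.p6, from 250 bases before to 50 bases after the annotated start) were found for 36 of the 48 genes. Nuclear genes of the respiratory chain are textbook targets of NRF1, of the ETS factor GABP, of YY1 and of the estrogen-related receptors (ERR), so short motifs of these factors were searched on both strands. The background is the share of 17491 protein-coding genes with the motif in any of their windows. NRF1 (GCGCANGCG) was found in 12 of the 36 genes (33.3%) and in 9.63% of coding genes, GABP/ETS (CCGGAAG) in 13 (36.1%) and 12.94%, YY1 (AANATGGC) in 5 (13.9%) and 7.46%, and ERR (TCAAGGTCA) in 2 (5.6%) and 0.38%. The TATA box (TATAAA) was found in 4 (11.1%) and in 14.8% of coding genes. Counted over all 32851 single windows, the shares were 6.25%, 8.86%, 6.05%, 0.42% and 13.62% in the same order. The NRF1 motif is nearly its own reverse complement, so a site such as GCGCATGCGC counts on both strands. The sequences shown here are those of complex II genes with motifs next to the start (Sdhd and Sdha), the 1 gene of complex IV with an NRF1 match (Cox6a1), and the c-subunit pair Atp5g1 and Atp5g2, which differ in motif content. Capitals mark NRF1 or GABP/ETS matches, all 5 genes lie on the minus strand, and each run reads 5′ to 3′ toward the start.
Sdhd (chr9:50603850-50603900): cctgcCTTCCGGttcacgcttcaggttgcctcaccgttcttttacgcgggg
Sdha (chr13:74350241-74350316): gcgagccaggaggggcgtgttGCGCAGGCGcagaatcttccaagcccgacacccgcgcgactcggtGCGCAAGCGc
Cox6a1 (chr5:115348959-115349128): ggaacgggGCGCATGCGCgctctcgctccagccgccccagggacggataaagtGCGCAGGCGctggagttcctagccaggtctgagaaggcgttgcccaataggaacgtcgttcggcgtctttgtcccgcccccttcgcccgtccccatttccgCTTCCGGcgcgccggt
Atp5g1 (chr11:96075695-96075864): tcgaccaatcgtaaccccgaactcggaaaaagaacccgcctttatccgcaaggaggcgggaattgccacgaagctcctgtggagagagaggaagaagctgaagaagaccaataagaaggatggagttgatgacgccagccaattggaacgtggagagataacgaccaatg
Atp5g2 (chr15:102671048-102671217): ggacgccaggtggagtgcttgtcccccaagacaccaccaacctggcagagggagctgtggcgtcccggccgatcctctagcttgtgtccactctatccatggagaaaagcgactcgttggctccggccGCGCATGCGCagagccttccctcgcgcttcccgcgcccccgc
The runs end at base -1 before the start, except that of Atp5g1, which ends at base -64 because a longer annotated form of the gene covers the bases after it. Those of Sdhd and Sdha are short because the annotated spans of neighbouring genes, Timm8b and Ccdc127, begin 52 and 77 bases before their starts. Within these spans, and so not printed, lie a further NRF1 match of Sdhd (GCGCACGCG, first base -79) and a further one of Sdha (GCGCAGGCG, first base -98), and an ERR match of Sdhd (TGACCTTGA, first base 37) lies after its start.

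Motif content and the size of the difference were set side by side as a description. Of the 36 genes 23 (63.9%) held a match to NRF1, GABP/ETS, YY1 or ERR, against 25.92% of coding genes, and their median log2 fold change was 0.26, with 4 genes past the thresholds (Sdhd, Sdhb, Uqcrc1 and Atp5o). The other 13 had a median of 0.28, with 1 gene past them (Atp5g1). Over all genes 2.92% passed upward. The 12 genes with an NRF1 match had a median of 0.31 and the 24 without it 0.25. The genes with a TATA box (Cox8b, Cox7b2, Atp5l and Atp5md) had differences of -0.12 to 0.23. A match is a string of letters and no evidence of binding.

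Complex II had a median log2 fold change of 0.69 over its 4 genes, and all 4 had a higher mean in the Ad-Cre-mCherry arrays. Sdhd, a membrane anchor that holds ubiquinone and heme, read 11.69, 11.05, 10.95 and 11.34 in Ad-mCherry replicates 1 to 4 and 13.12, 12.28, 11.94 and 11.69 in the Ad-Cre-mCherry arrays. Its lowest Ad-Cre-mCherry value thus only equalled its highest Ad-mCherry value, while the 4 same-number comparisons all pointed upward. The means were 11.26 ± 0.33 and 12.26 ± 0.62 (SD over 4 arrays each), which on the log2 scale is a difference of 1.0 (standard error 0.31, limma adjusted p = 0.729). An exact two-sided permutation test gave p = 0.0571, where 0.0286 is the smallest p that 4 against 4 arrays allow. Sdhd passed the thresholds in 11 of the 12 settings that leave out arrays, not without replicate 2 (0.92), and its difference was 0.71 without Ad-Cre-mCherry replicate 1.

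Sdhb, the iron-sulfur subunit that carries electrons from the flavin to ubiquinone, read 12.42, 13.74, 13.64 and 13.41 under Ad-mCherry against 14.02, 14.43, 14.19 and 13.72 under Ad-Cre-mCherry. Replicate 1 of Ad-mCherry lay about a log2 unit under the other Ad-mCherry arrays, and Ad-Cre-mCherry replicate 4 fell among the controls. The log2 fold change was 0.79 (standard error 0.30, limma adjusted p = 0.748, exact two-sided permutation p = 0.0571), and 0.49 without Ad-mCherry replicate 1, where it still passed the thresholds. Both arrays of replicate 1, 2 or 3 taken out, or Ad-Cre-mCherry replicate 2 or 3 alone, ended its call, with differences of 0.52, 0.82, 0.87, 0.67 and 0.75.

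Sdhc, the second membrane anchor, read 10.24, 9.24, 10.22 and 10.22 under Ad-mCherry against 11.14, 10.36, 10.36 and 10.45 under Ad-Cre-mCherry. The groups did not overlap, with a narrow gap between 10.24 and 10.36, and 1 array of each group stood apart from its 3 fellows. Its log2 fold change of 0.60 (standard error 0.28) missed the thresholds (unadjusted p = 0.0629 in limma) and passed with the replicate block (unadjusted p = 0.0177). Sdha, the flavoprotein that oxidises succinate, read 7.43, 7.66, 7.69 and 7.98 under Ad-mCherry against 8.69, 8.22, 8.77 and 7.08 under Ad-Cre-mCherry. It had the smallest difference of complex II (0.50, standard error 0.35), with same-number differences of 1.26, 0.56, 1.08 and -0.90, so replicate 4 ran against the other 3. Taken without both arrays of replicate 4, Sdha differed by 0.97 and passed the thresholds, as it did without Ad-Cre-mCherry replicate 4 alone (0.87), whereas without replicate 1 it differed by 0.25.

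**Figure D2:**
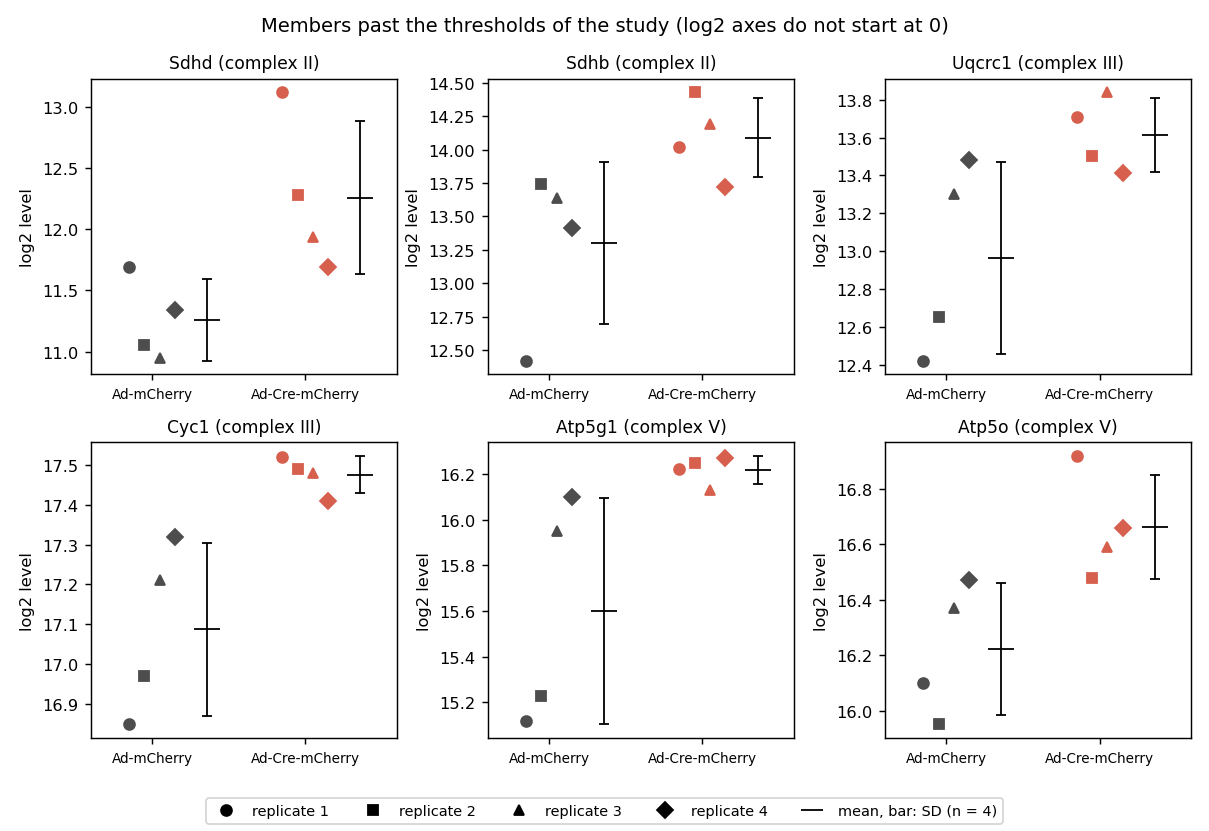
Deposited log2 level (vertical axes, which do not start at 0) of the 6 genes past the thresholds of the study in the 4 Ad-mCherry and 4 Ad-Cre-mCherry arrays, with a symbol for each replicate number and the mean ± SD (n = 4) at the side of each group. In Cyc1, Atp5g1 and Atp5o the groups do not overlap, in Sdhd they meet at 11.69, and in Sdhb and Uqcrc1 they overlap.

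Complex III had a median of 0.27, and all 9 genes had a higher mean with Ad-Cre-mCherry. Uqcrc1, a core protein on the matrix side, read 12.42, 12.65, 13.30 and 13.48 under Ad-mCherry against 13.71, 13.50, 13.84 and 13.41 under Ad-Cre-mCherry. The Ad-Cre-mCherry arrays lay close together and above all but the highest of the spread-out controls, with replicate 4 at -0.07. The log2 fold change was 0.65 (standard error 0.26, limma adjusted p = 0.752, exact two-sided permutation p = 0.0571), and Uqcrc1 passed in 5 of the 12 settings, with values down to 0.44 without replicate 1. Cyc1, cytochrome c1, which passes electrons on to cytochrome c, read 16.85, 16.97, 17.21 and 17.32 under Ad-mCherry against 17.52, 17.49, 17.48 and 17.41 under Ad-Cre-mCherry. Its Ad-Cre-mCherry values spanned 0.11, far less than the controls, and lay above all of them. The log2 fold change of 0.39 (standard error 0.16, limma adjusted p = 0.760, exact two-sided permutation p = 0.0286) passed in 4 of the 12 settings, falling to 0.29 without replicate 1, and did not pass when only genes at or above the median level were tested.

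None of the further genes of complex III passed the thresholds without the block. Uqcrfs1, the Rieske iron-sulfur protein, differed by 0.52 (standard error 0.28) and was higher in all 4 replicate numbers, passing only with the replicate block (unadjusted p = 0.0214 in limma). Uqcrb, a small subunit next to cytochrome b, differed by 0.33 with groups that did not overlap, 15.12 to 15.45 against 15.47 to 15.82. The small subunits Uqcrh, Uqcrq, Uqcr10 and Uqcr11 differed by 0.18 to 0.27 and passed in neither fit. Uqcrc2, the other core protein, had the smallest difference of the complex (0.14, standard error 0.71), reading 9.52, 9.24, 11.40 and 11.52 under Ad-mCherry against 9.74, 9.26, 11.82 and 11.42 under Ad-Cre-mCherry. Both groups split in the same way, low in replicates 1 and 2 and about 2 log2 units higher in replicates 3 and 4.

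Complex IV had a median of 0.18, with 16 of 18 genes higher and 2 lower. Past the thresholds were 0 genes, against 2.92% of all genes upward and 3.50% downward. With the replicate block 3 passed upward, against 6.54% of all genes. The median of the complex was 0.09 without Ad-mCherry replicate 1 and likewise 0.09 without Ad-mCherry replicate 2. Of the subunits that exist in a single form, Cox5a differed by 0.31, Cox7c by 0.10, Cox5b by 0.09 and Cox6c by 0.04. Cox7a2l, a relative of Cox7a2 that joins complexes III and IV into supercomplexes, differed by 0.49 (standard error 0.24) and was higher in all 4 replicate numbers, passing with the block (unadjusted p = 0.0216 in limma).

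General and tissue-bound forms of complex IV were set side by side. Cox6a1, the general form of subunit 6a, read 15.88, 15.37, 15.26 and 15.58 under Ad-mCherry against 16.68, 16.17, 15.62 and 15.82 under Ad-Cre-mCherry, a difference of 0.55 (standard error 0.25). Its muscle counterpart Cox6a2 read 17.03, 17.12, 18.17 and 17.77 under Ad-mCherry against 17.04, 17.59, 18.24 and 17.90 under Ad-Cre-mCherry, a difference of 0.17 (standard error 0.33). Both were higher in all 4 replicate numbers, but only Cox6a1 passed with the block (unadjusted p = 0.0133 in limma), and the difference between the forms was not tested. Cox7a1, the muscle form of subunit 7a, read 11.80, 14.64, 15.32 and 16.03 under Ad-mCherry against 13.79, 15.39, 15.80 and 16.33 under Ad-Cre-mCherry. It was higher in every number, by 1.99, 0.75, 0.48 and 0.30, yet the arrays of each group were so far apart that the difference of 0.88 had a standard error of 0.88. With the replicate block the standard error was 0.26 (unadjusted p = 0.0074 in limma), and without both arrays of replicate 1 the difference was 0.51. Without Ad-mCherry replicate 1 alone, which leaves the low Ad-Cre-mCherry replicate 1 in the other group, it was 0.00.

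Cox7a2, the general form of subunit 7a, read 16.64, 16.58, 16.66 and 16.45 under Ad-mCherry against 16.99, 16.70, 16.74 and 16.30 under Ad-Cre-mCherry, a difference of 0.10 (standard error 0.18). Cox4i1, the general form of subunit 4, read 16.31, 16.94, 17.27 and 17.46 under Ad-mCherry against 17.26, 17.24, 17.58 and 17.55 under Ad-Cre-mCherry, a difference of 0.41 (standard error 0.25). Cox4i1 was thus higher in all 4 numbers, with replicate 1 apart at 0.95 and the others at 0.09 to 0.31. Cox4i2, its hypoxia-induced counterpart, stayed between 3.73 and 4.02 under Ad-mCherry (3.73, 3.85, 4.02 and 3.74) and between 3.65 and 3.94 under Ad-Cre-mCherry (3.65, 3.91, 3.94 and 3.78). These values lie below the array medians of 4.78 to 4.87, and their difference of -0.02 has no settled sign.

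Cox8a, the general form of subunit 8, read 16.62, 16.05, 15.27 and 15.58 under Ad-mCherry against 17.05, 16.38, 15.64 and 15.78 under Ad-Cre-mCherry, a difference of 0.33 (standard error 0.38). The muscle form Cox8b read 16.15, 15.98, 16.59 and 16.89 under Ad-mCherry against 16.38, 16.46, 16.58 and 16.86 under Ad-Cre-mCherry, a difference of 0.17 (standard error 0.23). Across replicate numbers these forms ran in opposite directions in both groups, Cox8a being high in replicates 1 and 2 and Cox8b in replicates 3 and 4. The testis form Cox8c read 5.68, 5.49, 5.89 and 5.53 under Ad-mCherry against 5.64, 5.72, 6.21 and 5.81 under Ad-Cre-mCherry, a difference of 0.20 (standard error 0.18).

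Cox6b1, the general form of subunit 6b, read 14.97, 14.90, 16.05 and 16.20 under Ad-mCherry against 15.67, 15.39, 16.06 and 16.05 under Ad-Cre-mCherry, a difference of 0.26 (standard error 0.33). Only replicates 1 and 2 contributed to it, since the arrays of replicates 3 and 4 differed by 0.01 and -0.15. Cox7b read 17.80, 17.52, 17.78 and 18.03 under Ad-mCherry against 17.83, 17.80, 17.90 and 18.08 under Ad-Cre-mCherry, a difference of 0.12 (standard error 0.16). Its testis form Cox7b2 had the lowest value of the complex, -0.12 (standard error 0.16), from 5.30, 5.44, 5.35 and 5.01 under Ad-mCherry against 5.29, 5.28, 4.98 and 5.09 under Ad-Cre-mCherry. Each of these differences was smaller than its standard error, with unadjusted p of 0.452, 0.480 and 0.496 in limma. None of Cox6b1, Cox7b and Cox7b2 reached the fold threshold (0.263 on the log2 scale), so none could pass in either fit (0 of 3 genes).

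Complex V had a median of 0.25, and all 17 genes had a higher mean with Ad-Cre-mCherry. The c subunits form the rotating ring of the ATP synthase, and Atp5g1, Atp5g2 and Atp5g3 encode the same mature protein. Atp5g1 read 15.12, 15.23, 15.95 and 16.10 under Ad-mCherry against 16.22, 16.25, 16.13 and 16.27 under Ad-Cre-mCherry, so the Ad-Cre-mCherry arrays lay within 0.14 of each other and above all controls. Its means were 15.60 ± 0.50 and 16.22 ± 0.06 (SD over 4 arrays each), with a log2 fold change of 0.62 (standard error 0.24, limma adjusted p = 0.752, exact two-sided permutation p = 0.0286). Atp5g1 passed in 5 of the 12 settings and differed by 0.46 without replicate 1. Atp5g2, whose promoter holds the NRF1 match printed above, read 15.88, 15.31, 15.83 and 15.49 under Ad-mCherry against 16.28, 15.67, 16.11 and 15.14 under Ad-Cre-mCherry, a difference of 0.17 (standard error 0.27). Atp5g3 read 17.70, 17.83, 17.89 and 18.11 under Ad-mCherry against 18.01, 17.96, 18.18 and 18.37 under Ad-Cre-mCherry, a difference of 0.25 (standard error 0.17), and was higher in all 4 numbers. Whether the 3 genes differ from each other in response was not tested.

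The peripheral stalk holds the catalytic head still against rotation. Atp5o, the OSCP subunit that ties the stalk to the head, read 16.10, 15.95, 16.37 and 16.47 under Ad-mCherry against 16.92, 16.48, 16.59 and 16.66 under Ad-Cre-mCherry. The groups were divided by a gap of 0.01 between 16.47 and 16.48, and the log2 fold change was 0.44 (standard error 0.18, limma adjusted p = 0.760, exact two-sided permutation p = 0.0286). It passed in 4 of the 12 settings, was 0.31 without replicate 1, and did not pass when only genes at or above the median level were tested. The other stalk genes Atp5pb (0.42), Atp5j (0.29) and Atp5h (0.22) were higher in all 4 numbers, and Atp5pb passed with the block (unadjusted p = 0.0379 in limma).

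The F1 head makes the ATP. Its subunits Atp5c1 (gamma, 0.35), Atp5d (delta, 0.28), Atp5a1 (alpha, 0.27) and Atp5e (epsilon, 0.15) passed in neither fit. Atp5b, the catalytic beta subunit, had the smallest difference of the complex, 0.04 (standard error 0.14), from 18.73, 18.84, 18.91 and 18.81 under Ad-mCherry against 18.82, 18.83, 18.92 and 18.87 under Ad-Cre-mCherry. Its 8 values thus lay within 0.19 of each other, near the upper end of the scale, which reaches 19.89. The small membrane subunits Atp5j2, Atp5k, Atp5l, Atp5md and Atp5mpl differed by 0.10 to 0.25, and all 5 were higher in all 4 numbers.

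**Figure D3:**
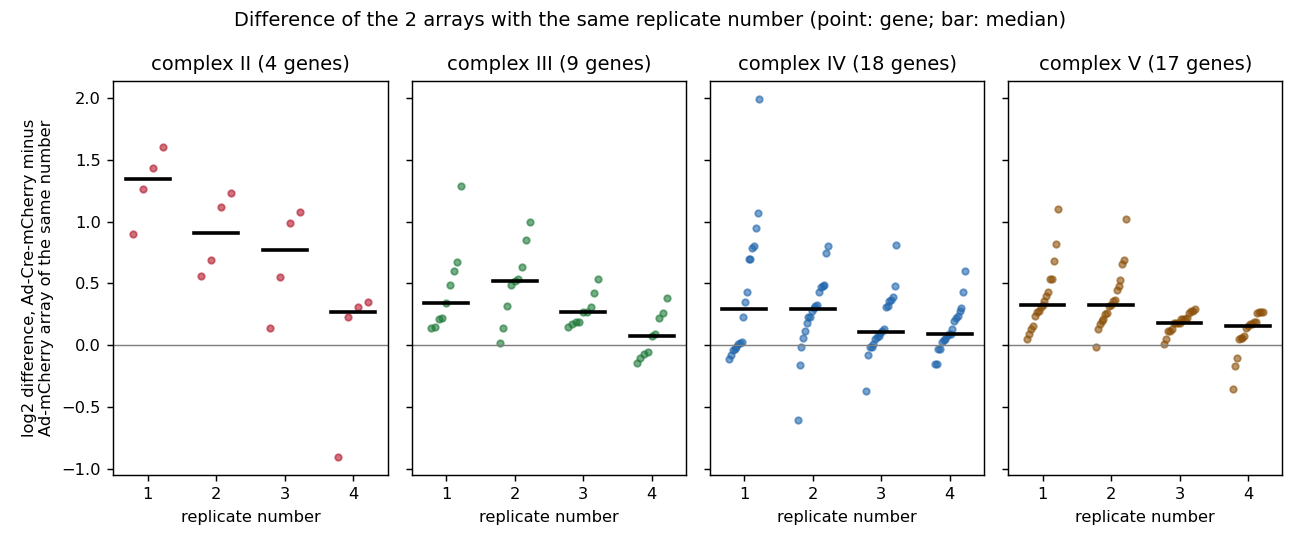
Log2 difference between the Ad-Cre-mCherry and the Ad-mCherry array of the same replicate number (vertical axis) for replicate numbers 1 to 4 (horizontal axis), in a panel for each complex, with a point for each gene and a bar at the median. All 16 medians lie above 0, and in complex II they run from 0.27 to 1.345.

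By replicate number, the difference was wide for some pairs of arrays and narrow for others. The median over the 48 genes was 0.355 in replicate 1, 0.345 in replicate 2, 0.19 in replicate 3 and 0.11 in replicate 4, and that over all genes was between -0.02 and 0.00. The genes with a higher Ad-Cre-mCherry value numbered 43, 44, 44 and 36 of 48 in these replicates. Complex II had medians of 1.345, 0.905, 0.77 and 0.27, complex III of 0.34, 0.52, 0.27 and 0.08, complex IV of 0.29, 0.29, 0.11 and 0.09, and complex V of 0.33, 0.33, 0.18 and 0.16. In each of the 4 complexes replicate 4 had the smallest median. The Rhoa differences given above were widest in replicates 1 and 4. The 4 pairs are too few for a correlation, and a link between the Rhoa and the respiratory differences was not tested.

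The mean log2 level over the 48 genes was 14.69, 14.77, 15.07 and 15.24 in Ad-mCherry replicates 1 to 4 and 15.19, 15.17, 15.31 and 15.34 in Ad-Cre-mCherry replicates 1 to 4. The Ad-mCherry arrays therefore spanned a range about 3 times that of the Ad-Cre-mCherry arrays, and the lowest controls, replicates 1 and 2, belong to the pairs with the wide differences. A low control widens the difference of its own pair by arithmetic, so these are not separate observations. Complex II was the exception to the wider range of the controls. Its mean was 10.45, 10.42, 10.63 and 10.74 under Ad-mCherry against 11.74, 11.32, 11.32 and 10.74 under Ad-Cre-mCherry, so there the Ad-Cre-mCherry arrays spread more. In complex V the Ad-Cre-mCherry means lay between 16.89 and 16.94, and the controls between 16.51 and 16.84.

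**Figure D4:**
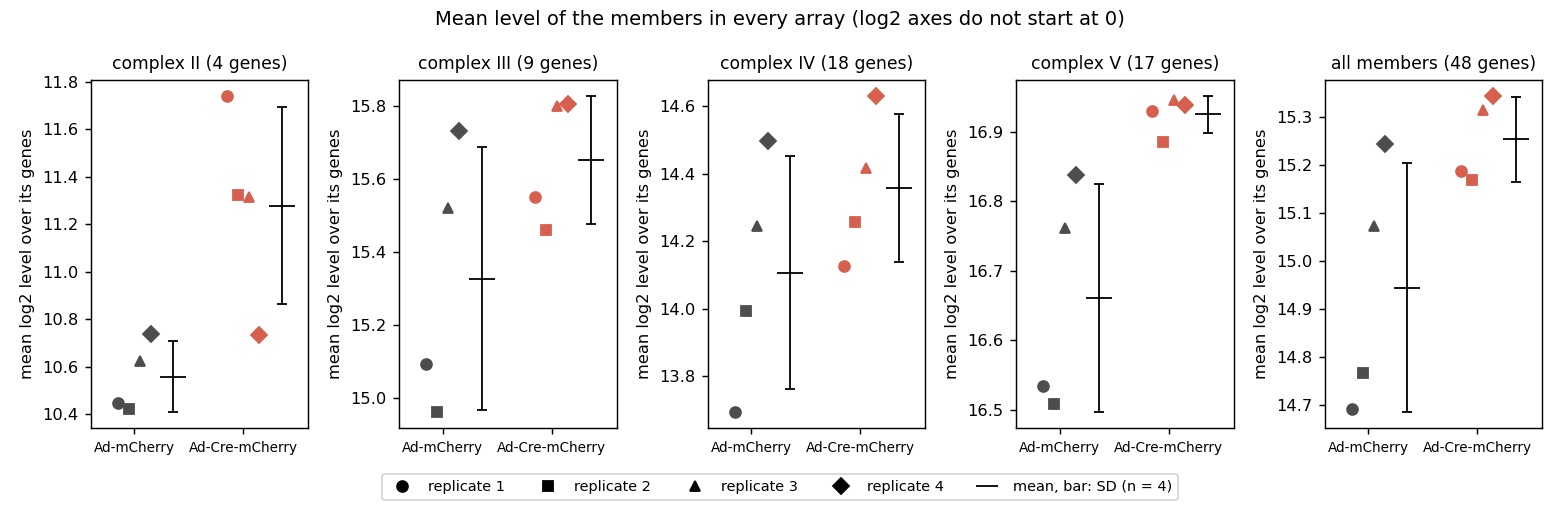
Mean deposited log2 level over the genes of each complex and over all 48 genes (vertical axes, which do not start at 0) in the 4 Ad-mCherry and 4 Ad-Cre-mCherry arrays, with a symbol for each replicate number and the mean ± SD (n = 4). In complexes III, IV and V the controls spread over a wider range than the Ad-Cre-mCherry arrays, whereas in complex II the Ad-Cre-mCherry arrays run from 10.74 to 11.74.

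The sum of squares of each gene was split by replicate number and by group. The median share of the number was 51.5% over the 48 genes and 52.4% over all genes. That of the group was 31.9% over the 48 genes and 9.64% over all genes. There are more numbers than groups, so the number takes the larger share on average even where neither has an effect. The shares therefore do not rank number and group. Uqcrc2 (98.7%), Cox6b2 (98.1%), Cox6a2 (92.9%), Cox4i2 (91.7%) and Cox8a (90.6%) followed the number closely. For Cox4i2 this is a share of a small spread, since its values lie below the array medians and its replicate means spanned only 0.29. Cox6b2, the testis form of subunit 6b, was the extreme case, reading 3.34, 6.66, 6.88 and 11.30 under Ad-mCherry against 4.41, 6.06, 7.69 and 11.73 under Ad-Cre-mCherry. Its replicate means spanned 7.64 log2 units, a range reached by 5 of the 19505 genes (0.0256%), and its group difference of 0.43 had a 95% confidence interval of -3.71 to 4.56. No source used here says what the replicate number stands for.

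**Figure D5:**
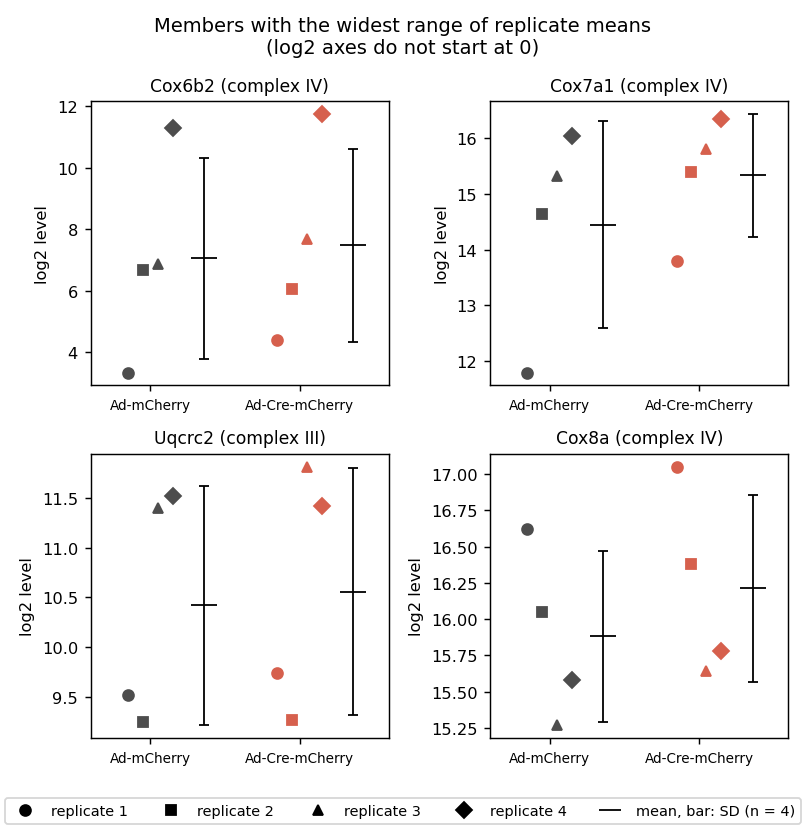
Deposited log2 level (vertical axes, which do not start at 0) of the 4 genes with the widest range of replicate means, Cox6b2, Cox7a1, Uqcrc2 and Cox8a, in all 8 arrays, with a symbol for each replicate number and the mean ± SD (n = 4). In each panel the 4 symbols keep nearly the same order in both groups, and the groups overlap.

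The size of the difference varied with the position on the intensity scale, though not steadily. The 29 genes with a mean of at least 16 were all higher, with a median of 0.23. Of these 2 were past the thresholds, and 1 with the block. The 14 genes between 8 and 16 were all higher, with a median of 0.54. Of these 4 were past the thresholds, and 10 with the block. Over all genes 2.92% passed upward, and 6.54% with the block. The fold threshold of 0.263 lies above the median of the bright genes, so these counts partly restate the sizes of the differences. Of the 5 genes under 8, 3 were higher and 2 lower. Across the 48 genes the rank correlation of mean level and log2 fold change was -0.44, a description over genes that share the same 8 arrays. The 184 other genes with a mean of at least 16 had a median of -0.01, with 85 higher, 98 lower, 2 past the thresholds upward and 5 downward. The part of the signal level in the smaller differences of the bright genes was not tested.

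Other genes of the pathway were counted in the same fit. Complex I, which feeds electrons from NADH, lies outside the 4 complexes and was taken as the 37 genes with Nduf subunit symbols. These include Ndufa4l2 (-0.03), a paralog of Ndufa4 that is not a complex I subunit. The median over the 37 genes was 0.26, the mean was higher in 34 and lower in 3, and 7 were past the thresholds upward (2.92% of all genes) against 0 downward (3.50% of all genes), among them Ndufs7 (0.86, standard error 0.24) and Ndufa6 (0.57, standard error 0.18). Of 12 citric acid cycle genes 10 were higher, with a median of 0.35, and 3 passed upward (again against 2.92% of all genes), including Idh3a (0.81), a subunit of isocitrate dehydrogenase, and Mdh2 (0.48), the mitochondrial malate dehydrogenase. None of either list passed downward (0 genes), and with the block 10 and 5 genes of these lists passed upward, against 6.54% of all genes. Cycs, the electron carrier between complexes III and IV, differed by 0.42 (standard error 0.20) and did not pass, nor did Ndufa4 (0.17), now counted as a complex IV subunit, or the testis cytochrome c Cyct (-0.11).

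Genes that assemble the complexes were less even. Of 20 complex IV assembly genes 17 were higher, with a median of 0.45. Cox14 (0.62, standard error 0.16), which acts in the making of the first core subunit, and Cox20 (0.66, standard error 0.19), a chaperone of the second, passed upward together with Cox19 (1.26, standard error 0.42), a copper-delivery protein, named here after its value was seen. These 3 of 20 stand against 2.92% of all genes, and with the block 9 of the 20 passed upward, against 6.54%. Among 4 complex II assembly genes, Sdhaf2 (0.72, standard error 0.28), which helps to attach the flavin to Sdha, passed upward. This 1 of 4 stands against 2.92% of all genes. Sdhaf4 differed by 0.30 and did not pass. All 6 complex III assembly genes were higher and 0 passed, with Uqcc2 at 0.30 and Uqcc3 at 0.42, although Uqcc3 passed upward with the block. Of the 3 complex V assembly genes, Atpaf1 (0.76) passed upward only with the block, and Atpaf2 (-0.06) passed in neither fit.

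Transcription factors and coactivators of nuclear mitochondrial genes showed no common direction. Of 11 such genes 5 were higher and 6 lower, the median was -0.01, and 0 passed the thresholds in either direction. Polrmt, the mitochondrial RNA polymerase, differed by 0.65 (standard error 0.31) and passed upward with the block, while Gabpa, the DNA-binding subunit of GABP, differed by -0.34 (standard error 0.19) and did not. Ppargc1a, the coactivator PGC-1 alpha, differed by 0.08 (standard error 0.51), and Nrf1, whose motif was searched above, by 0.08 (standard error 0.31), both named after their values were seen.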

How the data were processed

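RNA of 8 myotube samples (4 Ad-mCherry, 4 Ad-Cre-mCherry, grouped by the titles of the labels) was amplified, labelled with biotin and hybridised to Affymetrix arrays. The log2 values deposited by the authors come from the RMA algorithm in Affymetrix Expression Console, which removes background, puts all arrays on one distribution and joins the probes of a row into 1 value. No source used here gives a version. The probe annotation used for the gene symbols belongs to another Affymetrix mouse design than the one named in the methods, and no source says if the RMA values were scaled further, so every fold change is a difference of the values as deposited (2.05 to 19.89, array medians 4.78 to 4.87, smallest correlation of 2 arrays 0.962). The number of arrays limits the precision. No detection calls were used, so the distance of dim rows from background is unknown, and probe sequences were not used, so signal shared with pseudogenes or related genes was not tested.

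Of 22206 rows 19572 pair with 1 gene symbol and 2634 are unnamed here. The row with the highest mean stood for a symbol, which left 19505 genes. The groups were compared in R 4.3.3 with the lmFit and eBayes steps of limma 3.58.1, and p-values were adjusted over all 19505 genes after Benjamini and Hochberg. The study calls a gene at 1.2-fold or more and an unadjusted p below 0.05. Exact two-sided permutation tests stand beside the genes past them. The fit was tested on simulated data.

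No source says what a replicate number stands for. With each group centred on its mean, same-number arrays correlated at 0.561, 0.516, 0.623 and 0.557 and other pairs at -0.424 to 0.128. The numbers were therefore taken as pairs, from the data and not from the design, and a model that holds the number as a block was run as an alternative.

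The genes, lists and motifs were chosen with earlier results of these data known, so counts and medians over them are descriptions. Given in full are the genes past the thresholds, the lowest of each complex, the isoform pairs of complex IV and the 3 c-subunit genes. Sdhc is shown in full because its groups do not overlap. For other lists the 2 genes with the smallest p are named. Mitochondrially encoded genes and some assembly and regulator genes (Cox16, Sco2, Pet117, Esrra) were not analysed here. The other alternatives were a second quantile normalization, arrays centred on their medians, only genes at or above the median mean, all rows of a symbol averaged, eBayes with trend and robust settings, and leaving out replicates or arrays. Promoter sequences come from RefSeq, GRCm38.p6.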

Additional observations from a re-analysis of the deposited data

Results flagged for a closer look

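In 4 of the 96 groups of 4 arrays (48 genes in 2 groups) a single array stood far from the other 3, by a gap that took up most of the range of the group. Chance flags about 1 group in 20. Sdhc had 2 such arrays, Ad-mCherry replicate 2 at 9.24, where the others read 10.22 to 10.24, and Ad-Cre-mCherry replicate 1 at 11.14, where the others read 10.36 to 10.45. Without the first of these the difference of Sdhc was 0.35. Cox5b, a subunit at the matrix side of complex IV, read 17.18 in Ad-Cre-mCherry replicate 1 and 17.47 to 17.51 in the others. Atp5h, subunit d of the peripheral stalk, read 17.58 in Ad-mCherry replicate 4 and 17.33 to 17.37 in the others.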

How the results depend on the processing

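The median over the 48 genes stayed between 0.20 and 0.32 under every alternative run, and the count past the thresholds downward and that at an adjusted p under 0.05 stayed at 0. Upward, 11 of the 48 passed with the replicate block, 4 when only genes at or above the median mean were tested, and 0 (without replicate 2) to 10 (without Ad-mCherry replicate 4) when replicates or arrays were left out. The setting with only genes at or above the median mean drops the dimmer genes, Cox4i2 among them. Its counts, here and over all genes below, are therefore out of fewer genes and do not compare directly with the others. The block together with one number left out, an alternative added after seeing the data, gave 5, 5, 11 and 13 without replicates 1, 2, 3 and 4. Over all genes, 569 passed upward and 683 downward. These counts were 1276 and 1599 with the block, 300 and 420 with only genes at or above the median mean, 275 to 702 and 397 to 838 with replicates or arrays left out, and 922, 783, 1154 and 1422 upward and 1144, 1131, 1672 and 1516 downward with the block and replicate 1, 2, 3 or 4 left out. Among single genes, Cox4i2 became 0.00 with arrays centred on their median and 0.0067 with the block and replicate 1 or 3 left out, and Cox6c -0.0167 with the block and replicate 4 left out. Leaving out replicates or arrays turned the sign within ranges of -0.28 to 0.57 for Uqcrc2, -0.03 to 0.093 for Cox6c, -0.0025 to 0.23 for Cox7a2, -0.0125 to 0.39 for Cox6a2, -0.0025 to 1.41 for Cox7a1, -0.055 to 0.047 for Cox4i2 and -0.99 to 1.85 for Cox6b2. The cause was not tested. Dim genes such as Cox4i2 and Cox7b2 have no measured distance from background.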
